A study of Rattus norvegicus with 6 samples.

Results

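The regions described here are promoter tiles measured in ovarian granulosa cells of control rats. Their ratio of immunoprecipitated over input DNA was high for probes of their lengths. A tile is a stretch of the array in which probe starts lay no more than 1000 bp apart. Its value on an array is the mean, over its usable probes, of the log2 ratio of immunoprecipitated over input DNA, after the median ratio of all probes of the same length on that array was subtracted. Members were selected on their control values: each had a value over 0.7 (1.62-fold) on each of the 3 control arrays. Of 15345 tiles on chromosomes 1 to 20 with at least 3 usable probes, 1078 were members, which is 7.03%. The levels in control cells are therefore a description and carry no test.

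The donors were female F1 rats of the Sprague Dawley strain, sampled as adults. Dams were given water (control, 0 mg/kg) or cadmium chloride (cadmium, 8 mg/kg body weight) by gavage on gestation days 1 to 21, and ovaries of the offspring were taken at postnatal day 56. Granulosa cells were pressed out of punctured follicles, passed through a strainer and spun down. Each group had 3 arrays, which the labels call biological replicates without saying whether an array holds a single animal or a pool, or whether litters were separate. Both sequencing and 4 groups of dams appear in the labels, while the files are array scans of these 2 groups. No genetic alteration is named for either group. Purity of the granulosa cells was not checked, because the arrays measure DNA and their probes carry no gene names here.

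In methylated DNA immunoprecipitation an antibody against 5-methylcytosine captures fragments of sheared genomic DNA. Capture rises with the number of methylated CpG sites on a fragment, so the ratio reflects CpG density as well as the methylated share of each site. Most CpG-rich promoters of mammals are unmethylated in somatic cells, and dense promoter methylation is best known from genes that are silent outside the germ line, from imprinted genes, from the inactive X chromosome and from repeated elements. Granulosa cells surround the oocyte and make oestradiol from androgens. The values here are relative: a tile with a value of 1 had a ratio that was double the median of probes of its lengths, and no percentage of methylated DNA follows from it.

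The positions follow the rat build rn4. Since the gene annotation at hand follows a different assembly, tiles are named by position only. Neither genes nor exons were assigned to them, and whether a member lies at an active promoter was not analysed here. The word promoter rests on the design of the array.

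The 6 arrays were similar in most respects, and cadmium replicate 2 stood apart. The SD of tile values was 0.691, 0.711 and 0.735 on the control arrays, and 0.713, 0.515 and 0.687 on the cadmium arrays. The median input signal above its local background was 68 to 124 units on 5 arrays and 320.5 on cadmium replicate 2. The scan times in the file headers put that array alone in batch 1. Batch 2 held cadmium replicate 1 beside control replicates 1 and 2, and batch 3 held replicate 3 of each group. The main counts and medians of the comparison between groups are therefore given with and without it. Precision is limited by the number of arrays, and a p-value here measures only the spread between these 6 samples, which may be technical.

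The members formed the upper edge of a continuous range, with few tiles far above the threshold. On the control arrays the median member had values of 0.967, 0.997 and 1.05, which are ratios of 1.95, 2.00 and 2.07. The median of the 14267 other autosomal tiles was -0.256, -0.256 and -0.286 on the same arrays. Of the members, 527 (48.9%) had a control mean up to 1, 469 (43.5%) lay between 1 and 1.5, 68 (6.31%) between 1.5 and 2, and 14 (1.30%) above 2. Tiles at the threshold differed little. chr4:112364705-112366439 was a member with control values of 0.70, 0.82 and 1.12. chr4:75772781-75774298, with 0.77, 0.74 and 0.6998, was not. Of the others nearest the threshold, chr19:41850202-41851753 was inside with 0.73, 0.70 and 0.77, and chr18:37199215-37200868 was outside with 0.699, 0.79 and 0.71. On the cadmium arrays the inside tile read 0.81, 0.69 and 0.69 and the outside tile 1.01, 0.38 and 0.78. The control means of these tiles, 0.731 and 0.733, differed by less than the spread between control arrays.

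**Figure D1:**
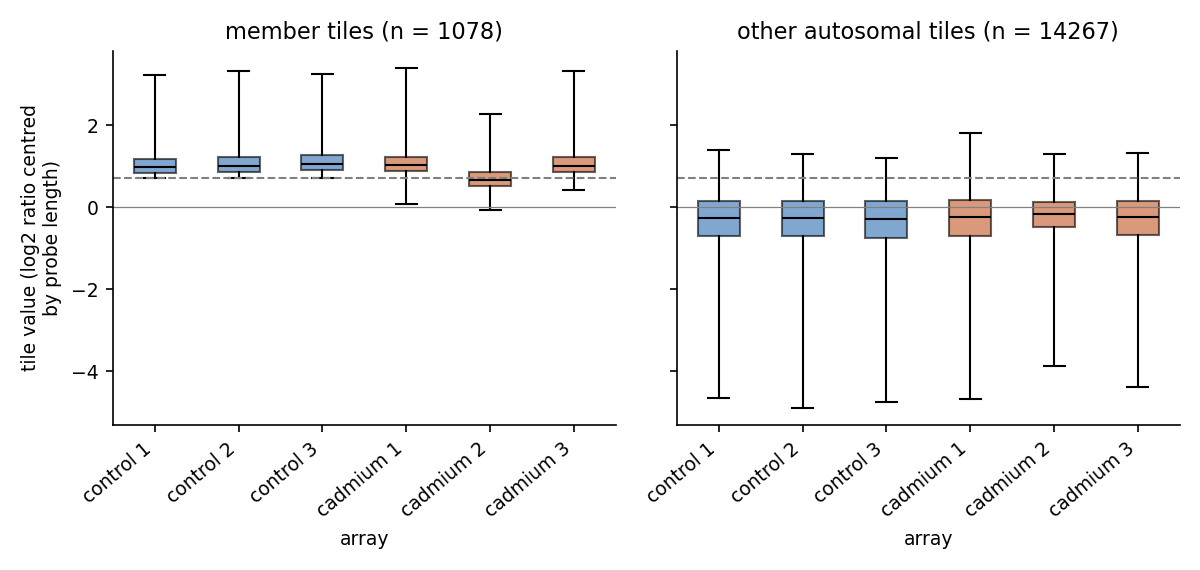
Tile values (log2 ratio centred by probe length, vertical axis) on each of the 6 arrays, for the 1078 member tiles (left) and the 14267 other autosomal tiles (right). Boxes span the quartiles with the median as a line, whiskers run from the lowest to the highest tile, and the dashed line is the threshold of 0.7; the members' median is 0.670 on cadmium replicate 2 and between 0.967 and 1.05 on the other 5 arrays.

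The 10 members with the highest control mean reached 4.57- to 9.57-fold. These levels and their order hold for values centred by probe length: without that centring chr4:159882837-159883997 read 1.09 and chr9:17086619-17088187 read 0.23, whereas chr19:14554298-14554986, whose probes are all of 45 bases, rose from 2.43 to 3.73. The highest was chr4:159882837-159883997, a tile of 1161 bp with 3 usable probes of 5 on the array. Its values were 3.21, 3.31 and 3.25 on the control arrays and 3.40, 2.18 and 3.32 on the cadmium arrays. Its control mean was 3.26 ± 0.048 (SD, n = 3), and the groups overlapped.

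That level rested on some of its probes. The probe at 159883074 to 159883130 read 4.67 and the probe at 159883938 to 159883997 read 4.84 as a mean of the control arrays, whereas the probe at the other end of the tile, 159882837 to 159882895, read 0.27. The probes in between were left out as dim and read 1.72 and 1.80.

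The next tile, chr1:57428922-57430581, also used 3 probes, all of 60 bases, of 9 on the array. Its control values were 2.89, 2.82 and 3.09, and its cadmium values were 2.55, 2.26 and 2.29, so that every cadmium array lay below every control array. A single probe at 57429422 to 57429481 read 6.17, against 2.00 and 0.63 for the others in use. The 6 probes that were left out as dim read between 0.51 and 2.33.

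A further tile of the same chromosome, chr1:57688055-57689727, had the rank 9 with 2.20 ± 0.20 (SD, n = 3). The others of the 10 lay on 7 chromosomes. chr3:69585182-69586856 had control values of 2.43, 2.67 and 2.75. The tile chr20:7323-9000, close to the start of chromosome 20 in rn4, had 2.49, 2.48 and 2.53 in control and 2.60, 1.45 and 2.26 in cadmium. In some tiles every usable probe was high: the 6 probes of chr9:17086619-17088187 lay between 1.47 and 2.71, the 3 probes of chr12:34471943-34472733 between 2.02 and 3.01, and the 3 probes of chr19:14554298-14554986 between 2.12 and 2.62. In others the probes disagreed, as in chr6:11175638-11177106, where they ran from -0.33 to 4.09. On 9 of the 10 tiles cadmium replicate 2 was the lowest of the 6 arrays; the exception was chr1:57688055-57689727.

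**Figure D2:**
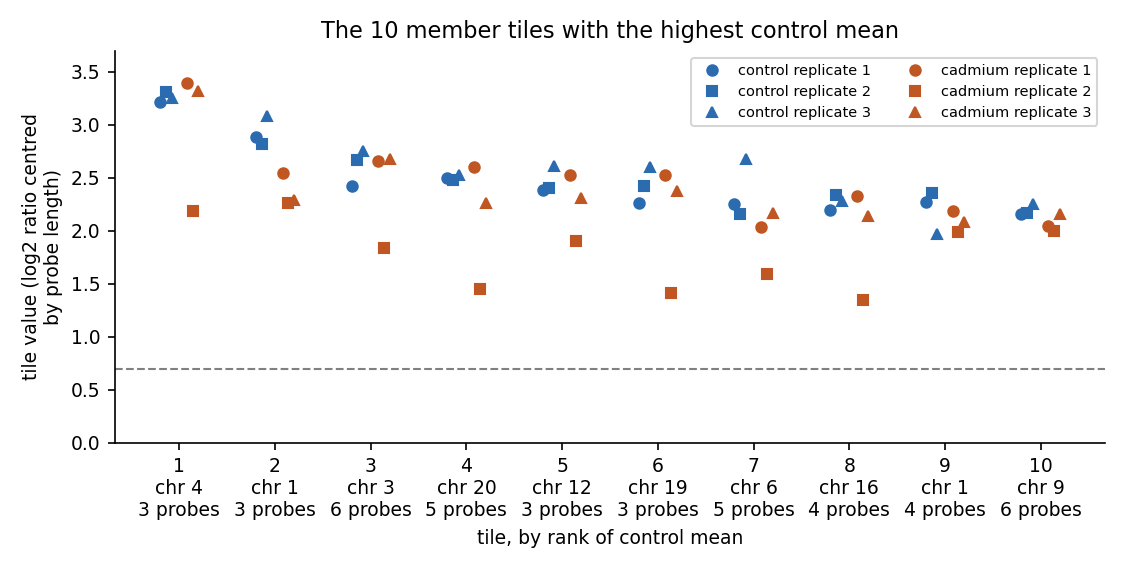
Values of the 10 members with the highest control mean (log2 ratio centred by probe length, vertical axis) on each array, ordered by control mean, with the chromosome and the number of usable probes under each tile. Control arrays are blue, cadmium arrays orange, symbols give the replicate and the dashed line is the threshold of 0.7; the orange squares of cadmium replicate 2 lie low in most tiles, for example 2.18 against 3.21 to 3.40 in the first.

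The members differed from the other tiles in both channels, and more in the immunoprecipitated one. With each channel centred by probe length, the median member had an immunoprecipitated signal of 1.09 ± 0.0054 in control and 1.03 ± 0.047 in cadmium (SD, n = 3), against 0.183 and 0.184 in the other tiles. Its input signal was -0.117 ± 0.053 in control and -0.028 ± 0.189 in cadmium, against 0.314 and 0.278. The cadmium value joins unlike arrays: the members' input was 0.188 on cadmium replicate 2. On cadmium replicates 1 and 3 it was -0.111 and -0.161, within the control range of -0.176 to -0.072. The centred signals of both channels added up to more than 0 in 906 members (84.0%), against 68.2% of the other tiles. That count requires neither an immunoprecipitated signal above 0 nor an input below 0. Immunoprecipitated signal was above 0 in 98.4% of members and 61.6% of the other tiles. Input was below 0 in 605 members (56.1%) and in 28.3% of the other tiles. In 17 members the immunoprecipitated signal was not above 0, so that a low input alone put their ratio over the threshold.

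Members were more frequent where input signal was low. In the lowest decile of autosomal tiles by input signal 16.6% were members, in decile 5 5.34% were, and in the highest decile 1.43%. The input is the denominator of the ratio that chose the members, so these shares are a description.

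Members had fewer usable probes than other tiles, at almost the same length. The median member had 8 usable probes and 1654 bp, and the median other tile 9 probes and 1666 bp. Members also lost more probes as dim: 1717, or 17.7%, against 10.7% in the other tiles. The share of members fell from 21.4% of tiles with 3 usable probes (39 of 182) to 15.5% with 5, 6.78% with 8 and 4.35% with 10. Over the same classes the SD of control means between tiles fell from 1.20 with 3 probes to 0.893, 0.683 and 0.638. The share of members and this spread fell together, and the part of the spread in the shares was not tested.

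By length, 17.5% of tiles up to 600 bp were members (25 of 143), against 6.73% of tiles over 1600 and up to 1700 bp and 3.40% of tiles over 1800 and up to 2500 bp. The longest member, singled out after its values were seen, was chr7:71231388-71237571 with 6184 bp and 31 usable probes. It read 0.72, 0.71 and 0.83 in control and 0.61, 0.55 and 0.68 in cadmium.

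Within a member the probes were far from uniform. Of the 8011 probes used, 61.5% read over 0.7 and 21.6% read below 0, against 28.6% and 55.5% in the other tiles. The SD of probes within a tile had a median of 1.40 in members and 1.60 in the others. In 140 members (13.0%) every probe was above 0, in 1055 (97.9%) more than 50% of them were, and in 23 they were not, so that a few high probes carried the mean. The dim probes that the rule left out did not separate the sets as the used ones did: on control replicate 1 their median was 1.05 in members and 0.910 in other tiles, against 1.04 and -0.212 for used probes.

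With probes pooled over tiles, the members' median was high at every place along the tile. Single members were not uniform, as given above. Among tiles over 1400 and up to 1800 bp, 880 members and 11755 others could be set side by side over 10 segments of equal length. The members' control level was 0.857 ± 0.041 (SD, n = 3) in the first segment, 1.15 ± 0.034 in the second, 1.15 ± 0.048 in the sixth and 1.04 ± 0.083 in the last. The other tiles were lowest at their ends, -0.408 and -0.297, and dipped in the middle to -0.261 between maxima of -0.122 in the third and -0.092 in the eighth segment. The members showed no such dip, and the difference in shape was not tested. Tiles are ordered by chromosome position, since gene strands were not used here.

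**Figure D3:**
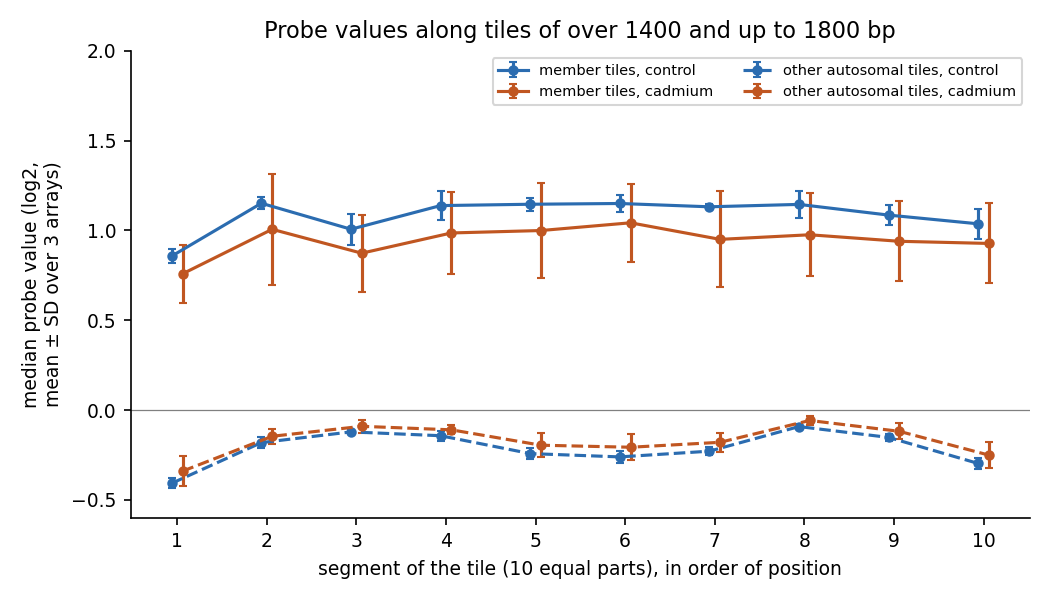
Median probe value (log2, vertical axis, mean ± SD over 3 arrays) in each of 10 equal segments of the tile in order of position (horizontal axis), for 880 member tiles (solid) and 11755 other autosomal tiles (dashed), in control (blue) and cadmium (orange). The members lie between 0.857 and 1.15 in control over all segments and the others between -0.408 and -0.092; the wide orange bars of the members hold the low values of cadmium replicate 2.

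Probe length bears strongly on which tiles count as highly methylated. Probes on this array are 45 to 60 bases long. The median ratio over all probes, as a mean of the control arrays before any centring by length, was 1.30 for 45 bases and -2.18 for 60 bases relative to each array's median. Centring by length made the medians of all probe lengths equal, while tile values still varied with length. The median control level of autosomal tiles was -0.042 at up to 46 bases. It was -0.338 at over 52 and up to 54 bases, and -0.196 at over 56. The share of members ranged from 5.39% to 9.22% over classes of mean probe length. It was highest at both ends, with 8.83% at up to 46 bases (224 members) and 9.22% at over 56 bases (47 members).

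Without the centring by length, 761 members (70.6%) were still over 0.7 on each control array, and 126 had a control mean below 0. All 224 members with a mean probe length up to 46 bases stayed over 0.7 on each control array, with a median control mean of 2.13, whereas the median of the 47 with the longest probes was -0.79. The deposited table of log2 values, whose scale and smoothing are not given in the sources used here, showed the same order. Its median over members was 1.06 as a mean of the control arrays, and none of the 807 members up to 50 bases was below 0 in it. Of the 43 members over 54 and up to 56 bases 69.8% were below 0, and of the 47 with still longer probes 87.2% were. In these classes the members' median in the deposited table was -0.13 and -0.34. For all autosomal tiles of the same classes it was -1.06 and -1.18. At up to 46 bases it was 1.70 for members and 0.83 for all autosomal tiles. The highest tile of all, chr4:159882837-159883997, had probes of 58.7 bases on average and read 0.84 in the deposited table.

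**Figure D4:**
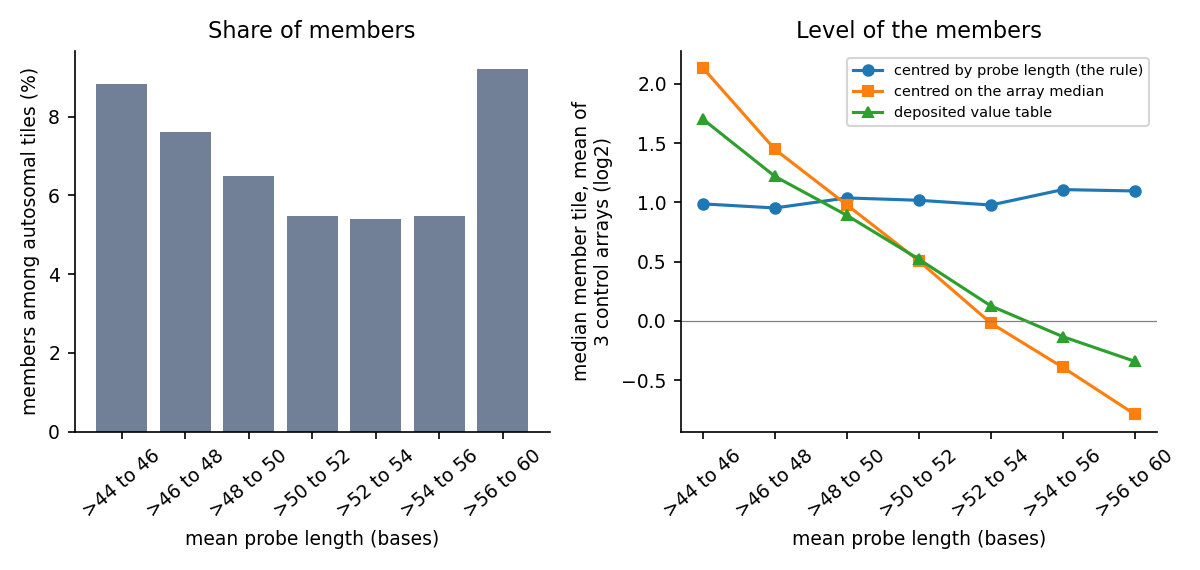
Left, share of members among autosomal tiles (%) by mean length of the usable probes (bases). Right, control level of the median member (log2) in the same classes on 3 scales; it stays between 0.95 and 1.11 with centring by probe length, and falls from 2.13 to -0.79 with centring on the array median and from 1.70 to -0.34 in the deposited table.

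Members lay on every autosome, most of them alone. Chromosome 1 held the most, 144 of 2215 tiles (6.50%). The share was highest on chromosome 16 (38 of 421, 9.03%), chromosome 19 (34 of 397, 8.56%) and chromosome 5 (78 of 964, 8.09%), and lowest on chromosome 4 (61 of 1023, 5.96%) and chromosome 15 (29 of 476, 6.09%). Outside the autosomes, the same threshold was passed by 40 of 557 tiles of chromosome X (7.18%) and by 7 of 99 tiles on unplaced sequence (7.07%). In these female animals the share on chromosome X was thus near the autosomal 7.03%.

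Most tiles next to a member were not members. Of the 2155 neighbouring tiles of members, 9.19% were members themselves, against 6.87% of the neighbours of other tiles. The median control level of a member's neighbour was -0.148, against -0.205. Within 5 kb 6 of 53 neighbours of members were members (11.3%), against 3.28% for other tiles. Each pair of neighbouring members is counted from both sides. The median control level of these 53 neighbours was -0.068, against -0.252 for those of other tiles. Between 5 and 20 kb the shares were 6.72% and 6.04%, between 50 and 200 kb they were 10.2% and 7.52%, and beyond 200 kb 11.2% and 8.26%. In all, 894 members had no member as neighbour, 74 runs held 2, 8 held 3 and 3 held 4.

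The tightest run of 4 covered 175 kb on chromosome 19, chr19:10161350-10336136. Its tile at 10334495 to 10336136 had control values of 1.21, 1.21 and 1.05 and cadmium values of 1.20, 0.57 and 1.06, and the control means of the other tiles of the run were 0.94, 0.98 and 0.86. The run on chromosome 6, chr6:54627813-54882567, spanned 255 kb. Its highest tile, chr6:54694778-54696111, had all 7 probes above 0 and read 1.39, 1.42 and 1.54 in control and 1.43, 0.99 and 1.55 in cadmium. The run on chromosome 4, chr4:111165470-112366439, was sparse, with 4 tiles over 1201 kb; its tile chr4:112354539-112356158 read 1.82, 2.04 and 1.76 in control.

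The ratios of the cadmium arrays took no part in the choice of members and show how far the pattern recurs. Their input did bear on which probes and tiles were usable, since a usable probe had input well above background on every array. On cadmium replicate 1, 1041 members (96.6%) were over 0.7, against 9.49% of all autosomal tiles. On cadmium replicate 3 there were 1005 (93.2%), against 8.96%. On cadmium replicate 2 there were 492 (45.6%), against 3.96%. All 3 cadmium arrays were over 0.7 in 465 members (43.1%), against 3.18% of autosomal tiles, and replicates 1 and 3 in 980 (90.9%), against 7.57%. The median member read 1.02, 0.670 and 1.01 on the cadmium arrays.

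With the rule turned to the cadmium arrays, 488 tiles passed, of which 465 were members, 95.3% of those tiles and 43.1% of the members. With cadmium replicates 1 and 3 alone, 1162 passed, and the 980 shared tiles were 84.3% of them and 90.9% of the members. In 1074 of 1078 members all cadmium arrays were above 0, against 4802 of all 15345 autosomal tiles. The other 4 members were below 0 on cadmium replicate 2 only, and are named on account of these values: chr1:201084506-201086135, chr3:163799068-163800746, chr6:25782983-25783342 and chr8:62297611-62298244. On that array they read between -0.078 and -0.050, and on cadmium replicates 1 and 3 between 0.69 and 1.18.

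The member with the lowest cadmium mean was chr8:17430272-17432005, and here the low array was another. Its control values were 0.83, 0.82 and 0.82 and its cadmium values 0.08, 0.41 and 0.91. Cadmium replicate 3 was above all control arrays, and the others below them. In the other 4 members of lowest cadmium mean, cadmium replicate 2 was the lowest array: chr13:109121710-109123483, for example, read 0.77, 0.76 and 0.78 in control and 0.77, 0.06 and 0.80 in cadmium, and chr1:95009513-95011294 read 0.72, 0.79 and 0.79 in control and 0.75, 0.28 and 0.61 in cadmium. The member chr17:14950347-14952012, among the highest on the cadmium arrays, read 2.18, 2.22 and 1.97 in control and 2.30, 1.91 and 2.40 in cadmium.

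The comparison of cadmium with control asks whether exposure in the womb left a difference at these tiles. Since members were chosen as high in control, the choice itself favours a lower value in cadmium, and the counts below are a description. With limma over all 16001 tiles of all chromosomes, 2 tiles (0.0125%) had an adjusted p under 0.05, and none was a member; the lowest adjusted p of a member was 0.930. At an unadjusted p under 0.05, 30 members were lower in cadmium (2.78%, against 0.625% of all tiles) and 0 were higher (against 2.6%). Without cadmium replicate 2 these counts were 16 lower (against 1.17% of all tiles) and 13 higher (against 2.84%). With equal spread they were 5 (against 0.612%) and 12 (against 1.89%), and with the scan batch as a block 36 (against 2.39%) and 23 (against 5.07%). With array weights they were 38 (against 1.97%) and 12 (against 4.69%). Both passing tiles were higher in cadmium: chr1:215580110-215581847 went from a control mean of -0.45 to 0.70 and chr1:185709022-185710720 from -0.28 to 0.58. On the cadmium arrays the first read 0.74, 0.63 and 0.73, over the threshold of the members on 2 of 3.

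Every cadmium array lay below every control array in 108 members (10.0%, against 2.67% of all tiles) and above in 2 (against 6.87%). These 2 were chr8:41666301-41667491, with 0.81, 0.99 and 1.06 in control and 1.07, 1.11 and 1.20 in cadmium, and chr11:82835372-82837086, with a difference of 0.056. With the spread of all arrays made equal the counts were 40 lower (against 2.12%) and 48 higher (against 6.36%). Without cadmium replicate 2 they were 121 lower (against 6.65%) and 74 higher (against 11.3%).

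The median difference over the members was -0.13, against 0.037 over all tiles, and 985 members (91.4%) were below 0, against 38.3% of all tiles. Without cadmium replicate 2 the median was -0.011, with 582 of 1078 members below 0, against 43.0% of all tiles. Within scan batch 2 the median was 0.024, within batch 3 it was -0.060, and with the spread made equal it was -0.011. Cadmium replicate 2, with 0.670, was the only cadmium array whose median member lay below the control arrays; the medians of the others, 1.02 and 1.01, lay within the control range. The median 95% confidence interval of a member's difference reached 0.285 to each side. It covers a single tile without adjustment, and the threshold after adjustment over all tiles is stricter: the largest difference of a member, -0.57, did not pass it.

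**Figure D5:**
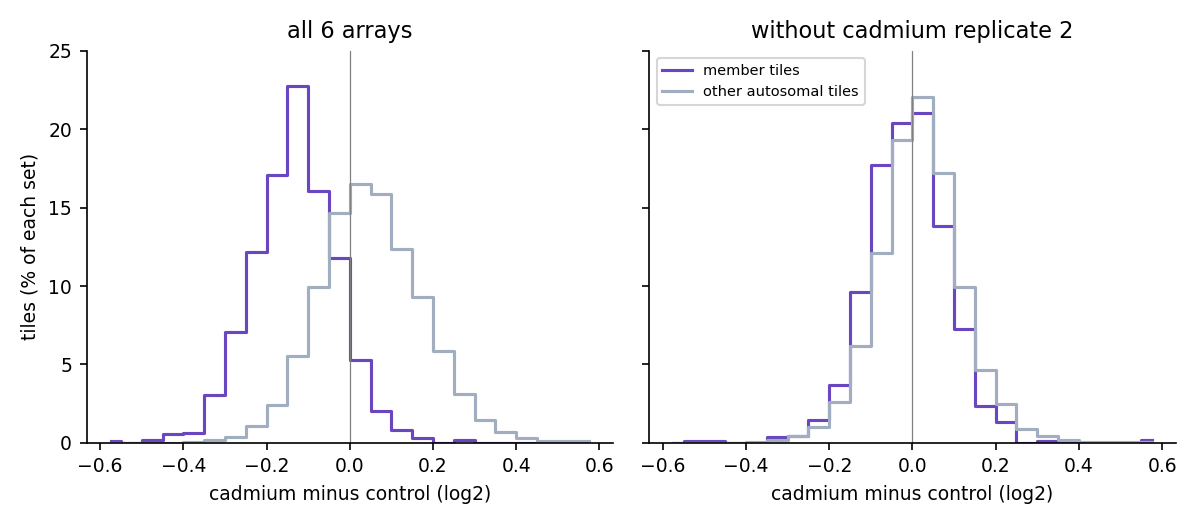
Share of tiles (%, vertical axis) by difference cadmium minus control (log2, horizontal axis, in steps of 0.05), for member tiles (purple) and other autosomal tiles (grey), from all 6 arrays (left) and without cadmium replicate 2 (right). The members' median moves from -0.13 to -0.011 when that array is left out; differences beyond the ends of the axis are counted in the outermost steps.

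To compare arrays whose ratios took no part in the choice, tiles were chosen on 2 control arrays and read on the rest. These were the control array left out and the cadmium arrays. Their input still bore on which probes and tiles were usable. With control replicate 1 left out, 1170 tiles were chosen, and their median was 0.944 on that array and 0.986, 0.652 and 0.980 on the cadmium arrays. With control replicate 2 left out, 1145 tiles read 0.983 there and 0.994, 0.658 and 0.985. With control replicate 3 left out, 1208 tiles read 1.01 there and 0.978, 0.656 and 0.968. The mean of the cadmium medians minus the array left out was -0.071, -0.104 and -0.143. Without cadmium replicate 2 it was 0.039, 0.0068 and -0.037, and with the spread made equal it was 0.011, 0.011 and 0.016. A single control array against 3 cadmium arrays allows no test at the threshold.

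The 5 members with the smallest unadjusted limma p were all lower in cadmium, and none passed the adjustment (adjusted p = 0.930 for each). The tile with the smallest p was chr1:57428922-57430581, described above as the second highest of all, with a difference of -0.57 (SE 0.12). Within batch 2 its difference was -0.31 and within batch 3 it was -0.80. chr14:44814597-44816144 read 1.68, 1.66 and 1.62 in control and 1.44, 1.29 and 1.23 in cadmium. Its difference was -0.33, of which the immunoprecipitated channel showed -0.040 and the input 0.29.

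The tile chr7:8086926-8088653 read 1.12, 1.27 and 1.19 in control and 0.89, 0.92 and 0.80 in cadmium. chr7:1292358-1293577 read 1.23, 1.41 and 1.09 in control and 0.89, 0.95 and 0.69 in cadmium, and lay lower in cadmium within both batches (-0.43 in batch 2, -0.39 in batch 3). chr9:44280360-44281875 read 1.60, 1.65 and 1.77 in control and 1.37, 1.27 and 1.48 in cadmium. In all 5 tiles the groups did not overlap, and cadmium replicates 1 and 3 were both below the control arrays. The choice of these tiles by small p favours this. In all 5 the input channel was brighter in cadmium, by 0.11 to 0.36. Over all members the median input difference was 0.087, against -0.042 in the other autosomal tiles. On cadmium replicate 2 the members' median input was 0.188, and on cadmium replicates 1 and 3 it was -0.111 and -0.161. These 2 values lay within the control range of -0.176 to -0.072.

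With the scan batch as a block, 11 tiles passed in limma (0.0687%), of which 1 was a member. This tile, chr1:165563722-165565437, was singled out after its values were seen. It read 0.81, 0.86 and 0.85 in control and 1.45, 0.57 and 1.35 in cadmium, so that cadmium replicates 1 and 3 lay above the control arrays and cadmium replicate 2 below. The block gave a difference of 0.56 (SE 0.077, adjusted p = 0.0456), and without it the difference was 0.28 (SE 0.20, adjusted p = 0.930). The call was also lost with the scan batch as a random block (0.46, adjusted p = 0.523) and without cadmium replicate 2 (0.56, adjusted p = 0.152). Cadmium replicate 2 is alone in its batch and gives no information to the blocked value. Between the groups its input channel differed by -0.38 and its immunoprecipitated channel by -0.10, and in the deposited table its control mean was -0.21.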

How the data were processed

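Genomic DNA of 6 samples was measured on arrays with 2 channels, Cy5 for immunoprecipitated and Cy3 for input DNA on every array, per the labels' protocols. The processed signal intensity values are those of Agilent Feature Extraction 11.0.1.1, per the file headers, with background subtracted and dyes scaled, on a design in build rn4. The deposited table holds log2 values made by the authors; the submitters' processing notes name limma, and its scale and smoothing are not given in the sources used here.

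Each probe's log2 ratio (Cy5 over Cy3) was centred on the median of all probes of the same length (45 to 60 bases) of the array, without loess or quantile steps. Control spots were left out, and 153335 of 172669 probes (88.8%) had input well above background on all 6 arrays. Probes whose starts lay up to 1000 bp apart formed 16174 tiles; 16001 had at least 3 usable probes. Two-sided moderated tests came from limma 3.58.1 (lmFit, eBayes) under R 4.3.3, whose data.table package had version 1.17.8, and p-values were adjusted by Benjamini-Hochberg over these 16001 tiles, with a threshold of 0.05. Summaries and figures used Python 3.11.15 with numpy 2.4.6, pandas 2.3.3 and matplotlib 3.10.9. On simulated tiles the limma fit recovered 2% of log2 changes of 0.25, 38% of 0.5, 84% of 1 and 98% of 2. Of its calls there, 6.72% were false. The simulated noise was independent between arrays, with the same SD for a tile on all 6. It held no scan batch and no array of narrow spread such as cadmium replicate 2, so the rates may differ in these data.

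The members, the threshold and the rules were chosen with earlier results of these data known. Tiles were named by rule: the 10 highest control means, 5 each just inside and outside the threshold, 5 each with the lowest and highest cadmium mean, the 5 smallest p, the 3 longest runs and any member passing; a few of these are shown, and others are said to be singled out. The files pair no probe with a gene, so the lists of germline, imprinted and receptor genes and the cell type markers of the design were not analysed here. Same-numbered samples had correlated deviations of -0.066, 0.056 and 0.410, so the numbers were not taken to pair samples. Alternatives covered background correction, normalization, filters, the tile rule, the threshold, blocks, array weights, leaving out each array, and the deposited table.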

Additional observations from a re-analysis of the deposited data

How the results depend on the processing

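The number of members and the number over 0.7 on all cadmium arrays (1078 and 465) moved with the filter, the centring, the background, the threshold and the values used. They were 2915 and 1694 with both channels required above background, 2799 and 1276 without centring by probe length, 531 and 134 with normexp, and 2663 and 2172 in the deposited table. With a threshold of 0.5 they were 1831 and 1082, and with a threshold of 1 they were 396 and 108. The count over 0.7 on all cadmium arrays was 230 with loess and 703 with equal spread, and it ran from 466 to 980 with each array left out, the highest without cadmium replicate 2. The members' count ran from 1078 to 1208 with each array left out. Leaving out an array can only loosen the rule, so neither the members' count nor the count on the cadmium arrays could fall. Of the members, 778 (72.2%) were kept without the probes flagged as outliers, 761 (70.6%) without centring by length, 736 (68.3%) in the deposited table, 600 (55.7%) with loess and 485 (45.0%) with normexp; the cause was not tested.

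In limma, tiles passing (2) became 1 without outlier probes, 1 without centring by length, 1 with equal spread, 0 with the median of probes, 11 with the scan batch as a block, 6 with it as a random block and 8 with array weights. With each array left out they ran from 0 to 3. Removing control replicate 1, 2 or 3 or cadmium replicate 1 left 0, and removing cadmium replicate 3 left 1. With the replicate number as a block 1 tile and 0 members passed. Members passing changed only with the scan batch as a fixed block, to 1. At array weights the lowest adjusted p of a member was 0.0921.

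The members' median difference (-0.13) was -0.175 without centring by length, -0.035 with quantile normalization, -0.011 with equal spread and -0.037 in the deposited table. It ran from -0.198 (without cadmium replicate 1) to -0.011 (without cadmium replicate 2) with each array left out. Within scan batch 2 it turned to 0.024, and within batch 3 it was -0.060. The differences of tiles chosen on 2 control arrays (-0.071, -0.104 and -0.143) were -0.083, -0.161 and -0.233 without centring by length. They turned to 0.011, 0.011 and 0.016 with equal spread, and were 0.039, 0.0068 and -0.037 without cadmium replicate 2. Members whose groups did not overlap (108 lower, 2 higher) were 40 and 48 with equal spread, and 74 were higher without cadmium replicate 2; these alternatives, and the tiles chosen on 2 arrays without cadmium replicate 2, were added after seeing the data. Named differences shrank in the deposited table, from -0.57 to -0.075 in chr1:57428922-57430581 and from -0.33 to -0.0022 in chr14:44814597-44816144. Dim immunoprecipitated signal limits the low side of the ratio: 74.1% to 77.7% of probes were above background in that channel on an array.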
